A study of Mus musculus with 6 samples.

Results

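The genes of the MiT/TFE transcription factors Tfeb, Tfe3 and Mitf and of the folliculin complex, Flcn, Fnip1 and Fnip2, were followed in RNA from the proximal mouse incisor. They were taken by gene symbol from the table of estimated counts per gene, so they are 6 of the 19060 genes listed, and the rule used symbols, not expression values. All 6 passed the filter on low counts, as did 15826 genes in total. The study asked what the loss of the receptor gene Fgfr1 from Gli1+ cells does to incisor tissue. RNA was sequenced in 3 control samples from Fgfr1fl/fl mice, which the sample annotations call wild type, and in 3 mutant samples from Gli1CreER;Fgfr1fl/fl mice. The labels write the mutant genotype as Gli1-Cre;Fgfr1fl/fl. All carried Fgfr1 alleles flanked by loxP sites, were given tamoxifen at 1 month of age and were sampled 1 week later. Only the mutant mice carried the tamoxifen-dependent Cre, and the control mice have no Cre of their own, so an effect of the driver allele and an effect of Fgfr1 loss cannot be told apart. Cre was directed to Gli1+ cells, whose progeny keep the deletion after tamoxifen. RNA came from the whole proximal end of the incisor, which also holds epithelium, vessels and blood cells. A lower value in such a sample can come from fewer cells of a type or from less RNA per cell, and these cannot be told apart. The labels name each sample but do not say how many animals it came from, so p-values measure the spread between these samples.

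TFEB, TFE3 and MITF are basic helix-loop-helix leucine zipper proteins that bind E-box sequences in the promoters of lysosomal and autophagy genes, and MITF also drives genes of melanocytes, osteoclasts and mast cells. When amino acids are plentiful, Rag GTPases at the lysosome bring these factors to mTORC1, which phosphorylates them and keeps them in the cytoplasm. Folliculin, the protein that FLCN encodes, works with FNIP1 or FNIP2 as the GTPase-activating protein of RagC and RagD, and this step is needed for mTORC1 to phosphorylate the MiT/TFE factors. The factors are thus controlled largely by phosphorylation and position in the cell, which RNA levels do not show.

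The libraries differed in depth and in makeup. Control libraries held 31060222 to 32712448 counts and mutant libraries 5276557 to 11819576, and mutant sample 1 was the shallowest. Genes without a count made up 27.3% of the table in mutant sample 1, 14.5% and 16.97% in mutant samples 2 and 3, and at most 2.44% in a control sample. Every mutant library was thus shallower than every control library, with more genes at 0. A difference in preparation or sequencing between the groups cannot be told apart from genotype. Values are CPM, in which each count is divided by the upper-quartile scaled size of its library, and 3 counts, the most that a count of 0 allows, equal 0.655 CPM in mutant sample 1, for counting error only. Skeletal muscle markers summed to 6786 CPM in mutant sample 1 and to 3008 CPM in control sample 2, against at most 1104 CPM in the other 4 libraries. Erythroid markers, 8 of 10 listed, summed to 380 to 835 CPM in control and 926 to 2560 CPM in mutant samples. They did not move as 1, and of the 6 tested 4 had a positive log2 fold change. Hba-a1 was lower in mutant samples, at -2.04 (edgeR adjusted p = 0.0460), and at -3.11 when corrected for transcript length and GC content. Hbb-bs and Hba-a2 were higher, at 1.81 and 1.36, and at 0.37 and 0.025 with that correction. Any reads shared between Hba-a1 and Hba-a2 could not be examined from estimated counts. The labelled tissue was present in all 6 libraries, with 1590 to 7742 CPM of the odontoblast gene Dspp and 15184 to 66940 CPM of the enamel gene Amelx. The 10 markers of dental epithelium and enamel summed to 86304 to 121401 CPM in control samples. In mutant samples 1, 2 and 3 they summed to 34650, 33390 and 72686 CPM, below every control sample. Of these 10 genes 2 had a positive log2 fold change, and the median was -0.62. By an unadjusted p under 0.05 and a change over 1.5-fold, 1 of the 10 was called higher and 0 lower. Over all genes that rule called 10.9% higher and 8.92% lower, and control and mutant samples did not overlap for 30.4%. The gene called higher was Amtn (log2 fold change 0.91, edgeR adjusted p = 0.190), at -0.19 when corrected for transcript length and GC content. The cause of the lower sums was not tested. The deleted gene Fgfr1 was lower in every mutant than in every control sample, with a log2 fold change of -1.37 and an adjusted p of 0.0881 (0.00323 in DESeq2). Corrected for transcript length and GC content it was -0.75 (adjusted p = 0.255), and without mutant sample 1 as well it was -0.57 (unadjusted p = 0.0886), no longer past the study's threshold of an unadjusted p under 0.05 and 1.5-fold. Because mutant sample 1 stood apart, each result for the 6 genes is given with and without it.

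None of the 6 genes passed a threshold with all libraries included. At an adjusted p under 0.05 (quasi-likelihood F test of edgeR, adjusted over all genes by Benjamini-Hochberg), 0 of the 6 were called, where 6.79% of all genes tested were. The study's own threshold, an unadjusted p under 0.05 and a change over 1.5-fold, called 0 of the 6 as higher, against 10.9% of all genes, and 0 as lower, against 8.92%. These are 1726 genes higher and 1411 lower, and with scaling by total counts alone the split was 1253 higher and 2335 lower. The control and mutant ranges overlapped for all 6 genes, whereas they did not overlap for 30.4% of all genes. Control samples lay close together for most of these genes, and the mutant samples did not. The highest control value was 1.07 (Tfeb) to 1.59 (Fnip2) times the lowest, and the highest mutant value was 1.76 (Tfeb) to 17.4 (Fnip1) times the lowest. Mutant sample 1 was the lowest of all 6 libraries for Tfeb, Tfe3, Flcn, Fnip1 and Fnip2 and the highest for Mitf. Among 7388 protein-coding genes at 4 to 40 CPM in the control samples, 34.6% were lowest and 25.3% were highest in that library. Over the same genes the median range of log2 CPM was 1.39 in mutant and 0.61 in control samples, so a wider mutant spread was not particular to the 6. The share of them with a smaller mutant range was 64.4% for Fnip2, 70.7% for Flcn, 79.0% for Mitf, 80.5% for Tfe3 and 81.9% for Fnip1.

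**Figure D1:**
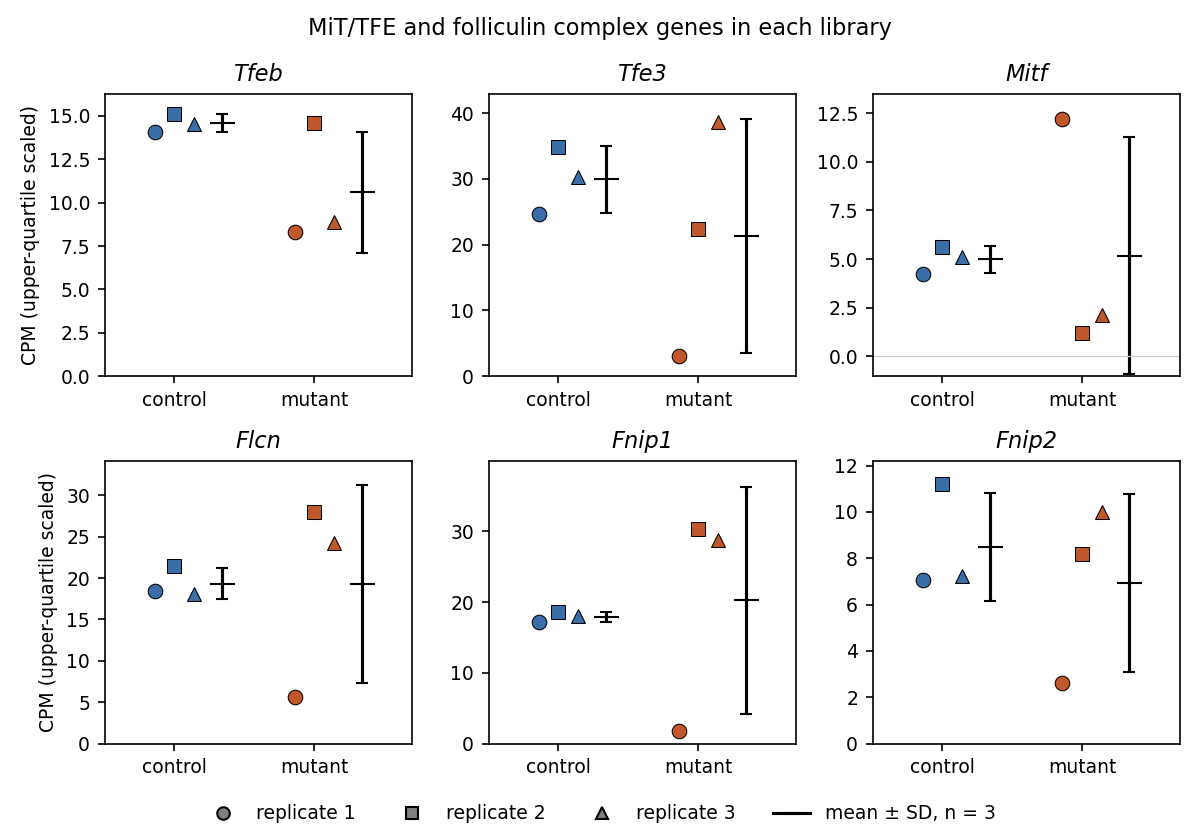
The level of each of the 6 genes in each library is plotted in CPM after upper-quartile scaling, with control samples in blue and mutant samples in orange, the replicate number as the symbol, and black bars for the mean ± SD of 3 samples. Mutant sample 1 (circle) lies below all control samples for 5 genes and above them for Mitf, and for Flcn and Fnip1 mutant samples 2 and 3 lie above all control samples.

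Tfeb, on chr17:47737030-47792419 of GRCm38 (plus strand), encodes a factor that binds promoters of lysosomal and autophagy genes. It had 14.1, 15.1 and 14.6 CPM in control samples 1, 2 and 3, and 8.29, 14.6 and 8.87 CPM in mutant samples 1, 2 and 3. Mutant samples 1 and 3 lay below all control samples, and mutant sample 2 lay within the control range. The mean was 14.6 ± 0.509 CPM in control and 10.6 ± 3.49 CPM in mutant samples (SD, n = 3 each). The log2 fold change was -0.46 with an approximate standard error of 0.47 and a 95% interval from -1.55 to 0.63, and edgeR's adjusted p was 0.676. It was -0.33 without mutant sample 1, with an adjusted p of 0.637. Tfeb had the tightest control values of the 6 genes, with a coefficient of variation of 3.49%, and its mutant range in log2 units was smaller than that of most genes of similar level, 25.1% of which had a smaller range still.

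Tfe3, on chrX:7762560-7775202 (plus strand), encodes a factor that overlaps with TFEB in function in many tissues. Its level was 24.7, 34.8 and 30.3 CPM in control samples and 3.06, 22.4 and 38.6 CPM in mutant samples. The mutant samples lay on both sides of the control range, since samples 1 and 2 were below all control samples and sample 3 was above them. The 3.06 CPM of mutant sample 1 rested on 14 counts, against 262 and 383 counts in mutant samples 2 and 3. The means were 29.9 ± 5.08 and 21.3 ± 17.8 CPM (SD, n = 3 each), and the log2 fold change was -0.48 (standard error 0.71, 95% interval -2.10 to 1.15, edgeR adjusted p = 0.790). When mutant sample 1 was left out it was 0.0086, with an adjusted p of 0.991, so the lower mean rested on that library.

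Mitf, on chr6:97807052-98021349 (plus strand), encodes the factor known from pigment cells, osteoclasts and mast cells. It had 4.25, 5.61 and 5.09 CPM in control samples and 12.2, 1.20 and 2.12 CPM in mutant samples. Mutant sample 1 was above all control samples, and mutant samples 2 and 3 were below them, on 14 and 21 counts. The means were 4.98 ± 0.683 and 5.18 ± 6.12 CPM (SD, n = 3 each), with a log2 fold change of 0.037 (standard error 1.01, 95% interval -2.29 to 2.37, edgeR adjusted p = 0.99). This was the widest interval of the 6 genes and spans changes from 0.204-fold to 5.15-fold. Without mutant sample 1 the log2 fold change was -1.61 (standard error 0.71, unadjusted p = 0.0574, edgeR adjusted p = 0.203).

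Markers of the cell types in which MITF acts were counted beside it. Osteoclast markers, all 10 in the table, summed to 159 to 296 CPM in control samples and to 624, 173 and 413 CPM in mutant samples 1, 2 and 3. Mutant sample 1, the highest for Mitf, was also the highest for these markers, and for skeletal muscle markers (6786 CPM). Mutant sample 3 was above all control samples for the osteoclast markers, while its Mitf value of 2.12 CPM was below them. Calcr, Oscar, Dcstamp and Ocstamp were at 0 in mutant sample 2, Oscar and Dcstamp in mutant sample 3, and none in mutant sample 1. Ctsk, the collagen-degrading protease of osteoclasts, passed the study's threshold (129, 129 and 73.6 CPM against 311, 103 and 258 CPM, log2 fold change 1.02, edgeR adjusted p = 0.228), and the other 7 osteoclast markers tested did not. That call held in 5 of 16 alternatives and was lost without mutant sample 1. Of 10 melanocyte markers 5 were in the table, with Tyr, Tyrp1, Mlana, Slc45a2 and Oca2 not among the genes listed, and the 5 summed to 23.0 to 32.2 CPM in control and 29.2 to 33.9 CPM in mutant samples. Pmel, a melanosome protein, had 0.88 to 1.23 CPM in control samples and no count in any mutant sample. Its log2 fold change was -7.47 (edgeR adjusted p = 0.0464), a size that rests on the mutant counts of 0. A count of 0 allows up to 0.655, 0.256 and 0.302 CPM in mutant samples 1, 2 and 3. Pmel was the 1 of 4 melanocyte markers tested past the study's threshold, against 8.92% of all genes lower. That call held in 12 of 14 alternatives, with an adjusted p under 0.05 in 2. Mc1r was at 0 in mutant samples 2 and 3. Mast cell markers, 8 of 10 in the table, summed to 43.8 to 124 CPM in control samples and to 65.0, 36.4 and 24.5 CPM in mutant samples, most of it Kit. Of these 8, 7 were at 0 in mutant sample 1, 5 in mutant sample 2, and Tpsab1, Cma1 and Hdc in mutant sample 3. Macrophage markers, all 10 in the table, summed to 190 to 580 CPM in control and 431 to 577 CPM in mutant samples, with Itgam at 0 in mutant sample 1. The part of any of these cell types in the Mitf values was not tested.

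Tfec, the other gene of the MiT/TFE family and not among the 6, was higher in every mutant than in every control sample. It is best known from macrophages and osteoclasts. Its level was 0.320, 0.467 and 0.347 CPM in control samples, from 11 to 17 counts, and 9.38, 10.4 and 1.51 CPM in mutant samples, from 43, 122 and 15 counts. The log2 fold change was 4.21 (standard error 1.11, unadjusted p = 0.00509, edgeR adjusted p = 0.0642), past the study's threshold but not past an adjusted p of 0.05. DESeq2 gave an adjusted p of 0.000839. It was 3.95 without mutant sample 1 (edgeR adjusted p = 0.0585), 3.62 with the length and GC correction, and 3.29 with that correction and a replicate block, where it no longer passed the study's threshold (unadjusted p = 0.0612). The osteoclast sums in mutant samples 1 and 3 were above those of the control samples and that in mutant sample 2, where Tfec was highest, was within their range, and the part of these cells in the Tfec values was not tested.

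Levels of different genes can be set side by side only per length, and CPM per kilobase of all annotated exons was used. Among control samples the order was Flcn, Tfe3, Tfeb, Fnip1, Fnip2 and Mitf, at 4.47 ± 0.434, 3.23 ± 0.549, 2.57 ± 0.0898, 2.52 ± 0.105, 1.01 ± 0.280 and 0.804 ± 0.110 CPM per kilobase (SD, n = 3 each). The same order held in each of the 3 control samples. Values of Tfeb and Fnip1 overlapped between samples, as did those of Fnip2 and Mitf. Within each control sample Tfeb was above Fnip1 and Fnip2 above Mitf, and these differences between neighbours were not tested. The lowest Tfe3 value and the highest Tfeb value were both 2.67 CPM per kilobase, while Flcn and Tfe3, and Fnip1 and Fnip2, did not overlap. In the control samples 52.9% of 13807 protein-coding genes had a lower level per kilobase than Flcn, 44.4% than Tfe3, 38.7% than Tfeb, 38.0% than Fnip1, 19.6% than Fnip2 and 16.4% than Mitf. Per kilobase of the longest transcript instead, Tfeb came first at 6.23 CPM per kilobase, before Flcn at 5.42 and Tfe3 at 4.73, because the annotated exons of Tfeb span 5669 bases and its longest transcript 2342 bases. In mutant samples 2 and 3 Flcn was again first and Mitf last per kilobase of exon, and in mutant sample 1 Mitf was first at 1.97 and Fnip1 last at 0.245 CPM per kilobase.

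The balance within the family is shown as the share of each gene in the summed counts per kilobase of exon of Tfeb, Tfe3, Mitf and Tfec. In control samples Tfe3 held 45.2 to 50.7%, Tfeb 35.9 to 42.2%, Mitf 11.6 to 12.2% and Tfec 0.922 to 1.13%. The order of Tfe3 and Tfeb depends on the length used. Per kilobase of the longest transcript the control mean of Tfeb, 6.23 CPM, was above that of Tfe3, 4.73 CPM. In mutant samples 1, 2 and 3, Tfe3 held 6.06, 34.3 and 65.7%, Mitf 36.2, 2.74 and 5.38%, and Tfec 30.8, 26.4 and 4.26%. The control samples differed from each other by less than the mutant samples did. Within the folliculin set, Flcn held 55.2 to 56.8% of the counts per kilobase in control samples and 70.2, 55.3 and 51.7% in mutant samples, and Fnip1 held 29.3 to 33.4% in control samples and 13.1, 36.3 and 37.3% in mutant samples.

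**Figure D2:**
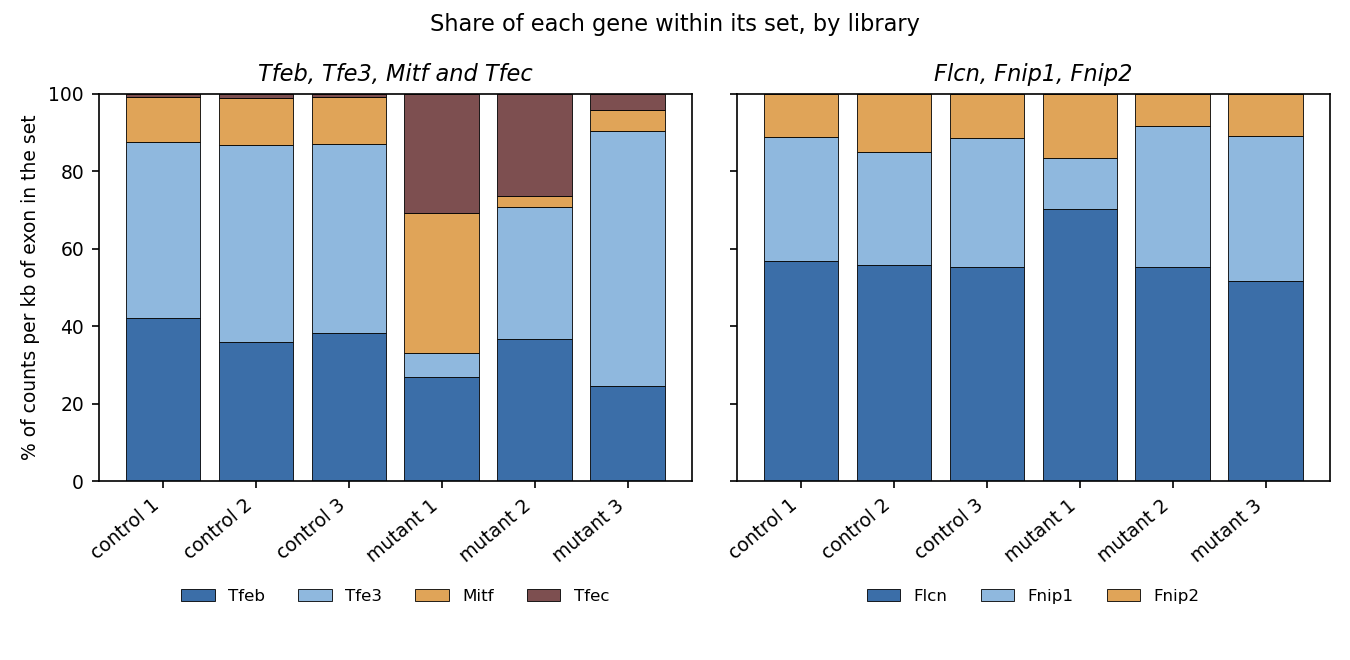
Stacked bars give, for each of the 6 libraries, the percentage of counts per kilobase of exon that each gene held within Tfeb, Tfe3, Mitf and Tfec (left) and within Flcn, Fnip1 and Fnip2 (right). Tfec holds at most 1.13% in a control bar and 30.8, 26.4 and 4.26% in the mutant bars, and Flcn holds 51.7 to 70.2% of each bar on the right.

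Ratios of counts within a sample do not depend on the scaling of the libraries. The log2 ratio of Mitf to Tfe3 was -2.53, -2.63 and -2.57 in control samples and 1.96, -4.18 and -4.16 in mutant samples, so the mutant samples lay on both sides of a narrow control range. The mutant mean exceeded the control mean by 0.45 (exact permutation test, two-sided, p = 1, where 0.1 is the smallest p that 3 against 3 samples allow). Leaving out mutant sample 1 gave a difference of -1.59 with an exact p of 0.1, again the smallest that the design allows. The log2 ratio of Tfe3 to Tfeb was 0.81, 1.20 and 1.06 in control and -1.41, 0.61 and 2.12 in mutant samples (mutant minus control -0.58, exact p = 0.7), and without mutant sample 1 the difference was 0.34. The log2 ratio of Fnip2 to Fnip1 was -1.28, -0.73 and -1.32 in control and 0.56, -1.88 and -1.52 in mutant samples (mutant minus control 0.16, exact p = 1), and without mutant sample 1 it was -0.59 (exact p = 0.1). All 3 differences changed sign when mutant sample 1 was left out. With the length and GC correction the difference was 1.00 for Fnip2 to Fnip1 (exact p = 0.3), -0.77 for Tfe3 to Tfeb and -0.14 for Mitf to Tfe3, and none of these passed.

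Flcn, on chr11:59791408-59810016 (minus strand), encodes folliculin, the tumor suppressor lost in Birt-Hogg-Dubé syndrome. Its level was 18.5, 21.5 and 18.1 CPM in control samples and 5.67, 28.0 and 24.2 CPM in mutant samples. Mutant sample 1 was below all control samples, and mutant samples 2 and 3 were above all of them, at 1.45 and 1.25 times the control mean. The 2 directions cancelled, with means of 19.3 ± 1.88 and 19.3 ± 11.9 CPM (SD, n = 3 each) and a log2 fold change of 0.0055 (standard error 0.56, 95% interval -1.28 to 1.29, edgeR adjusted p = 0.997). Over the other 5 libraries the log2 fold change was 0.42 (standard error 0.28, edgeR adjusted p = 0.392).

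Fnip1, on chr11:54438199-54518235 (plus strand), encodes a partner that binds folliculin and AMPK. It had 17.1, 18.6 and 18.0 CPM in control samples and 1.75, 30.3 and 28.7 CPM in mutant samples. As for Flcn, mutant sample 1 was below all control samples, on 8 counts, and mutant samples 2 and 3 were above all of them, on 355 and 285 counts, at 1.69 and 1.60 times the control mean. The means were 17.9 ± 0.744 and 20.3 ± 16.1 CPM (SD, n = 3 each), with a log2 fold change of 0.19 (standard error 0.79, 95% interval -1.64 to 2.01, edgeR adjusted p = 0.934). Without mutant sample 1 the log2 fold change was 0.70 (standard error 0.26, unadjusted p = 0.0309, edgeR adjusted p = 0.139). Fnip1 was then the 1 gene of the 6 past the study's threshold and higher in mutant samples, where 12.2% of all genes tested were called in that direction.

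Fnip2, on chr3:79455974-79567796 (minus strand), encodes the paralog of FNIP1 and the other partner of folliculin. It had 7.05, 11.2 and 7.22 CPM in control samples and 2.62, 8.20 and 9.98 CPM in mutant samples. Mutant samples 2 and 3 lay within the control range, and mutant sample 1 lay below it, on 12 counts. The means were 8.49 ± 2.34 and 6.93 ± 3.84 CPM (SD, n = 3 each), and the log2 fold change was -0.28 (standard error 0.71, 95% interval -1.92 to 1.36, edgeR adjusted p = 0.886). Over the other 5 libraries it was 0.082, with an adjusted p of 0.934.

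Over protein-coding genes, the smooth trend of level over transcript length and GC content differed between control and mutant libraries, and that difference had opposite signs for Fnip1 and Flcn. The trend is centred over the 6 libraries, so opposite signs in the control and mutant groups follow from the centring and only the difference between the groups is measured. That difference went with both genotype and library depth, which cannot be told apart here. Fnip1 has a long, GC-poor transcript (6255 bases, 38.9% GC), and the trend at that length and GC content lay at -0.34, -0.16 and -0.28 in control samples and 0.038, 0.29 and 0.46 in mutant samples on the log2 scale. Flcn has a shorter transcript of 3567 bases and 54.9% GC, for which the trend lay at 0.14, 0.32 and 0.21 in control and -0.23, -0.18 and -0.26 in mutant samples. After correction for the trend the log2 fold change of Fnip1 was -0.43 and that of Flcn was 0.45, with edgeR adjusted p of 0.875 and 0.796. With the correction and without mutant sample 1, a setting added after the values were seen, Fnip1 was at 0.060 (adjusted p = 0.906), so its difference was near 0. In the same fit Flcn was at 0.86 (standard error 0.22, unadjusted p = 0.00623, edgeR adjusted p = 0.0690) and Mitf at -1.74 (standard error 0.64, unadjusted p = 0.0330, edgeR adjusted p = 0.159). Flcn was then the 1 gene of the 6 past the study's threshold upward, against 9.67% of all genes, and Mitf the 1 gene past it downward, against 13.9%. Tfeb, Tfe3 and Fnip2 were at 0.32, 0.39 and 0.32 in that fit, with adjusted p of 0.612, 0.468 and 0.676. For Mitf, of 43.4% GC, the trend was between -0.096 and 0.10 in every library.

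**Figure D3:**
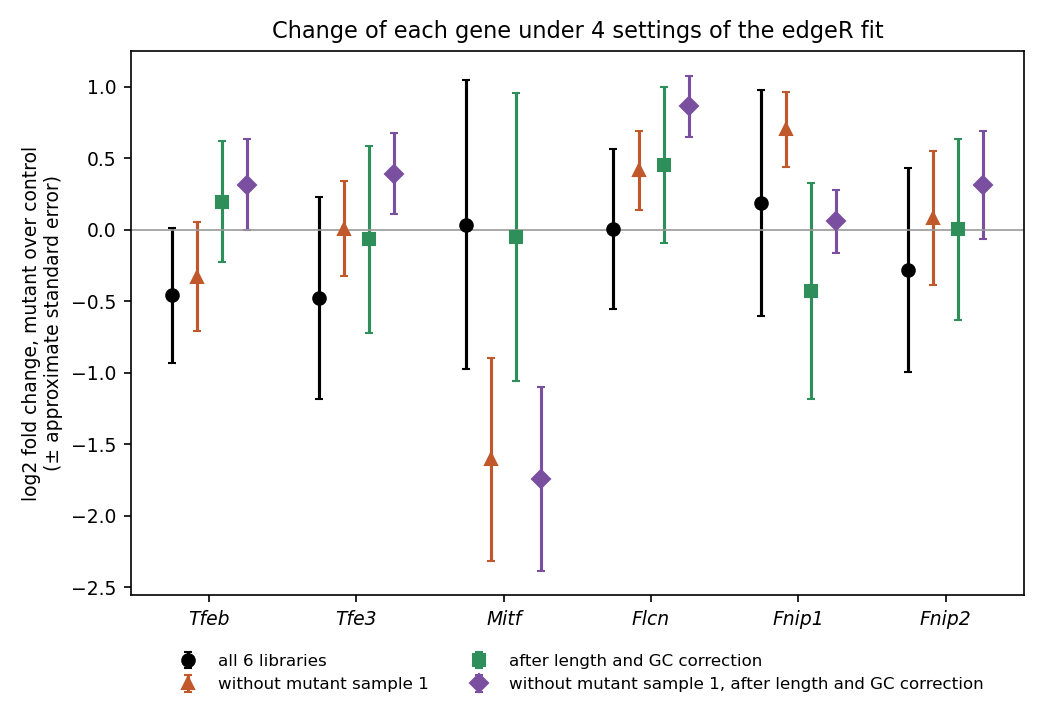
Points give the log2 fold change of each gene, mutant over control, in 4 fits, and bars give ± 1 approximate standard error. Mitf moves from 0.037 to -1.61 when mutant sample 1 is left out, and Fnip1 moves from 0.70 to 0.060 when the length and GC correction is added to that fit while Flcn moves from 0.42 to 0.86.

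The promoters of Fnip1 and Flcn are shown because both genes were lowest in mutant sample 1 and above all control samples in mutant samples 2 and 3, and because the MiT/TFE factors bind E-boxes. RefSeq windows of 300 bases on GRCm38.p6, from 250 bases before to 50 bases after a gene's start, were at hand for all 6 genes, 11 windows in total. The letters searched, on both strands, were CACGTG, the core shared by many helix-loop-helix factors, CATGTG, and TCACGTGA, an extended form that contains the first. Over 32851 windows of all genes, 7.15% held CACGTG, 14.2% CATGTG and 0.974% TCACGTGA. Of the 11 windows, 1 held CACGTG, that of Fnip1, with the first base 75 bases before the start, and 0 held CATGTG or TCACGTGA. The windows are printed in the direction of transcription, with CACGTG in capitals, for Fnip1 at chr11:54437929-54438228 (plus strand) and for Flcn at chr11:59809990-59810289 (minus strand).
Fnip1: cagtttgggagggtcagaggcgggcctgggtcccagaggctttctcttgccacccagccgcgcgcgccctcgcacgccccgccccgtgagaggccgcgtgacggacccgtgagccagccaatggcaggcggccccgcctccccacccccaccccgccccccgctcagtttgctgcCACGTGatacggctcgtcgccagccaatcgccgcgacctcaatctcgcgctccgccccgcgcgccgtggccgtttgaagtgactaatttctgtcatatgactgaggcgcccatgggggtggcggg
Flcn: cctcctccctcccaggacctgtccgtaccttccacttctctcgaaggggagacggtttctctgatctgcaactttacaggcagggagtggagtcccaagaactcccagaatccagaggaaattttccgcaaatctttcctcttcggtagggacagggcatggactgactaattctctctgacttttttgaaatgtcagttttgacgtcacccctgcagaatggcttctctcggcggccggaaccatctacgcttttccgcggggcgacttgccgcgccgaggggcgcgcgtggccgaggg
A match is a description of the letters, and nothing about binding follows from its presence or absence.

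For each of the 6 genes the most similar protein-coding genes were sought by the root mean square difference of centred log2 CPM over the 6 libraries, among about 9320 genes with a mean of at least 10 CPM. The closest were Rabgef1 (0.047) and Trpc4ap (0.075) for Tfeb, and Brd7 (0.17) and Synj1 (0.18) for Tfe3. For Mitf they were Pik3r4 (0.17) and Ccdc86 (0.25), for Flcn Lpcat4 (0.052) and Ankrd28 (0.082), for Fnip1 Krit1 (0.075) and Ghdc (0.14), and for Fnip2 Upf2 (0.085) and Phc3 (0.087). Krit1, for example, had at most 11.5 CPM in a control sample and 1.09, 17.9 and 18.3 CPM in mutant samples, so that mutant sample 1 was the lowest and mutant samples 2 and 3 were the highest, as for Fnip1. Among the 6 genes themselves, Flcn and Fnip2 were the most alike (0.26) and Mitf and Fnip1 the least (2.31). All libraries and their depth are shared by these comparisons, so the differences are descriptions.

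The genes that act with the 6 were grouped by role and described by counts past the study's threshold and by the median log2 fold change, which was -0.040 over all genes tested. Their counts with all libraries can be read against the 10.9% of all genes that were higher and the 8.92% that were lower by that threshold. Other fits have other backgrounds. Genes called higher and lower were 2110 and 2503 of 17227 tested without mutant sample 1, and 1178 and 1187 of 15826 with the length and GC correction. They were 1906 and 2826 of 17099 without mutant sample 2, and 1785 and 2572 of 17123 without mutant sample 3. Without control samples 2 and 3 in turn they were 1375 and 869 of 15490, and 1230 and 776 of 15600. Among 10 genes of the Rag GTPases, the Ragulator and their amino acid sensor, 1 rose and 0 fell, and the median was 0.41. The gene that rose was Lamtor5, a Ragulator subunit, with 50.8, 24.2 and 37.7 CPM in control and 60.6, 88.3 and 70.7 CPM in mutant samples (log2 fold change 0.96, edgeR adjusted p = 0.129). Its mutant values were all above its control values, but with the length and GC correction its log2 fold change was -0.046 and no gene of the group rose, as was the case with scaling by total counts and without mutant sample 2. None of the 5 genes of mTORC1 passed, with a median of -0.44, and Mlst8, a subunit of the complex, came closest at a log2 fold change of -0.96 (unadjusted p = 0.0924). Without mutant sample 1 these medians were 0.15 and -0.59, and after the length and GC correction 0.016 and 0.097.

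Among 13 partners and relatives of folliculin (AMPK subunits, chaperones and the C9orf72 complex), 0 rose and 1 fell, and the median was 0.038. That gene was Prkab1, a beta subunit of AMPK, at 27.6, 27.0 and 23.9 CPM in control and 7.86, 7.43 and 15.1 CPM in mutant samples (log2 fold change -1.36, edgeR adjusted p = 0.111). Among 21 genes for the phosphatases, kinases, 14-3-3 proteins and exporter that set the position of the factors, 2 rose (9.52%) and 5 fell (23.8%), and the median was -0.11. Xpo1, the nuclear exporter that carries these factors out of the nucleus, had 26.5, 25.7 and 31.6 CPM in control and 119, 62.4 and 98.6 CPM in mutant samples. This was the largest change of the group, a log2 fold change of 1.74 (standard error 0.29, edgeR adjusted p = 0.0274), with no overlap between the groups. Ywhaq, a 14-3-3 protein, also rose (log2 fold change 1.13, adjusted p = 0.0525).

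The genes that fell in this group were kinases and a channel. Mapk3, the kinase ERK1, had 130, 109 and 99.2 CPM in control and 51.5, 55.2 and 58.3 CPM in mutant samples (log2 fold change -1.03, edgeR adjusted p = 0.0458), again with no overlap. Gsk3b, a kinase that phosphorylates TFEB, fell by 1.01 on the log2 scale (edgeR adjusted p = 0.0775). The other 3, named after their values were seen, were Mcoln1, the lysosomal calcium channel, Gsk3a and Akt1, at log2 fold changes of -1.13, -1.09 and -0.72. The calls of Gsk3a and Akt1 were lost with the length and GC correction. Of the 2 genes of the group with an adjusted p under 0.05, Xpo1 rose and Mapk3 fell. Both kept the study's threshold in all 16 alternatives, and an adjusted p under 0.05 in 9 and 4 of them.

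Among the described lysosomal targets of the factors, more genes fell than rose. Of 44 genes of lysosomal hydrolases and membrane proteins 2 rose (4.55%) and 10 fell (22.7%), with a median of -0.28. Lamp2, a major lysosomal membrane protein, had 276, 201 and 261 CPM in control and 403, 424 and 453 CPM in mutant samples (log2 fold change 0.80), and Cd63, a tetraspanin of lysosomes, had a log2 fold change of 0.95, with edgeR adjusted p of 0.0990 and 0.176. Arsb, the arylsulfatase that degrades dermatan sulfate, had at least 220 CPM in each control sample and 72.2, 112 and 123 CPM in mutant samples (log2 fold change -1.67, edgeR adjusted p = 0.0464). Smpd1, acid sphingomyelinase, had a log2 fold change of -0.96 (adjusted p = 0.0521). Arsb was the 1 gene of the 44 with an adjusted p under 0.05, which it kept in 7 of 16 alternatives. The call of Lamp2 was lost with the length and GC correction, where its log2 fold change was 0.11, and that of Cd63 without mutant sample 1. Leaving out mutant sample 1 gave 1 gene higher and 14 lower (median -0.46), and correcting for length and GC content gave 1 higher and 7 lower (median -0.094).

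Of 17 genes of the V-ATPase, the proton pump that acidifies lysosomes, 4 rose and 4 fell (23.5% each way), with a median of -0.090. Atp6v0e and Atp6ap2 rose (log2 fold changes 0.97 and 0.92, edgeR adjusted p = 0.0987 and 0.131), and Atp6v1b2 and Atp6v0d1 fell (-0.90 and -0.70, adjusted p = 0.113 and 0.135). The others, named after their values were seen, were Atp6v0b and Atp6v1g1 upward and Atp6v0a2 and Atp6ap1 downward. With the length and GC correction 1 of the 17 was higher and 3 were lower, the calls of Atp6ap2, Atp6v0b, Atp6v1g1 and Atp6v0a2 being lost, and without mutant sample 3 the counts were 1 and 2. Of 12 autophagy genes described as targets, 0 rose and 3 fell, with a median of -0.44. Atg9a, the lipid scramblase of the autophagosome membrane, had 33.0, 56.9 and 51.5 CPM in control and 21.2, 17.4 and 30.5 CPM in mutant samples (log2 fold change -1.03, edgeR adjusted p = 0.131). Ulk1, whose kinase initiates autophagy, had 30.8, 58.1 and 44.5 CPM in control and 15.7, 21.0 and 29.1 CPM in mutant samples (log2 fold change -1.01, edgeR adjusted p = 0.159). The third was Wipi1, named after its values were seen. Corrected for length and GC content, 1 of the 12 was higher and 0 were lower, so the calls of Atg9a, Ulk1 and Wipi1 were lost there. In other fits 0 were higher and 2 lower without mutant sample 1, and none of the 12 passed without control sample 2 or control sample 3.

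Of 12 other described targets none passed, and the median was 0.0050. Bcl2, which blocks apoptosis and is a target of MITF in melanocytes, came closest, at 22.6, 24.05 and 17.9 CPM in control and 31.6, 41.5 and 28.6 CPM in mutant samples (log2 fold change 0.66, unadjusted p = 0.0659, edgeR adjusted p = 0.288). Gpnmb, a glycoprotein widely used as a readout of TFE3 activity, had 1.60, 3.33 and 2.63 CPM in control and 8.95, 2.22 and 0.202 CPM in mutant samples. Its mutant values lay on both sides of the control range, with mutant sample 1 the highest, as for Mitf (log2 fold change 0.57, edgeR adjusted p = 0.866). Among 13 other helix-loop-helix zipper factors that bind E-boxes, 1 rose (7.69%) and 3 fell (23.1%), with a median of -0.25. Usf1 rose, with 47.4, 35.1 and 36.6 CPM in control and 62.2, 75.3 and 66.3 CPM in mutant samples (log2 fold change 0.78, edgeR adjusted p = 0.104), and Mycl and Srebf2 fell (-1.21 and -0.86, adjusted p = 0.161 and 0.10). The third that fell was Srebf1, named after its values were seen. All 3 downward calls were lost with the length and GC correction, where the median was -0.043, and none of the 13 passed without control sample 3.

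**Figure D4:**
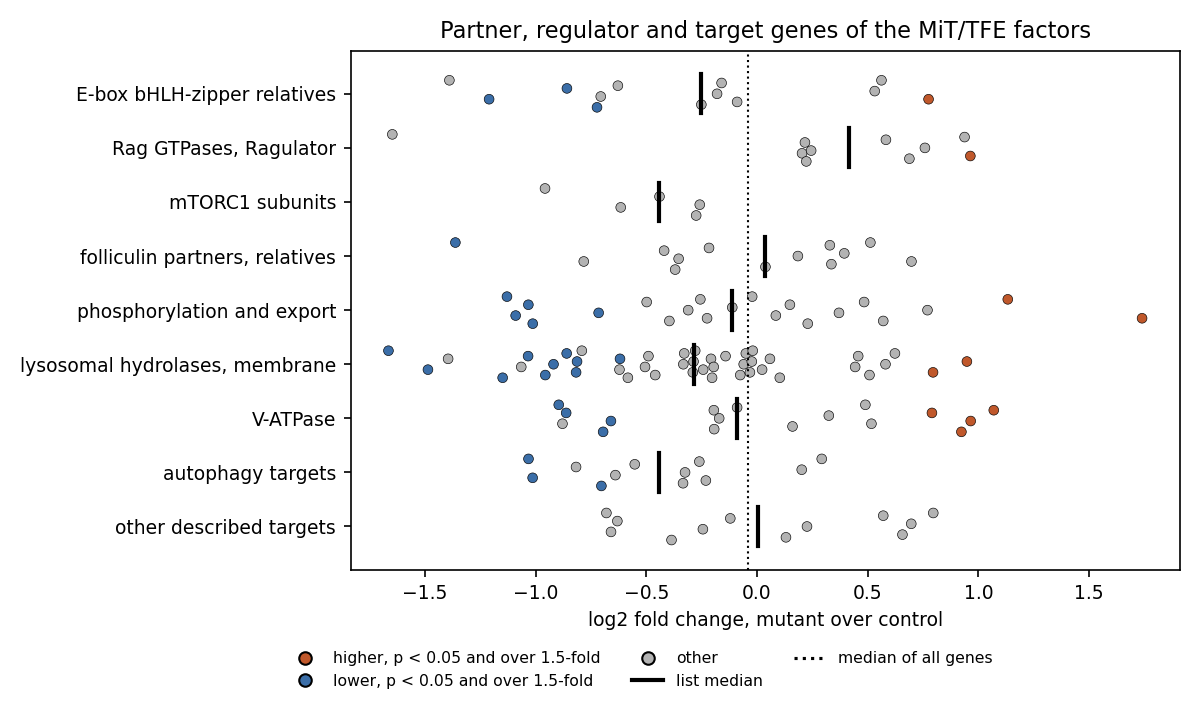
Each point is a gene of a group that acts with or downstream of the MiT/TFE factors, placed by its log2 fold change, mutant over control, in the fit with all 6 libraries, and colored where it passed an unadjusted p of 0.05 and a 1.5-fold change. Black bars mark the group medians, from -0.44 to 0.41, and the dotted line marks the median of all genes tested, -0.040.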

How the data were processed

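Bulk RNA from the proximal incisors of control and mutant mice (3 samples each) was sequenced as single reads, and samples were grouped by the labels. The authors trimmed and aligned the reads in Partek Flow to mm10 (GRCm38), and the submitters' processing notes name TopHat2 2.0.8. The authors deposited estimated counts per gene, not normalized and filtered on features, and the counting model and annotation are not given in the sources used here. A second deposited table holds the authors' comparison (p-values, fold changes and group means after upper-quartile scaling) and was not used here.

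Counts were rounded to whole numbers and tested in R 4.3.3 by edgeR 4.0.16 with upper-quartile scaling, filterByExpr on low counts (minimum count 10, minimum total 15) and genotype alone in the model. The quasi-likelihood F test was two-sided, and p-values over 15826 genes were adjusted by Benjamini-Hochberg. An approximate standard error is the size of the log2 fold change over the root of F. CPM are edgeR's scaled values, and per kilobase values divide them by exon length in GENCODE M21, where 18637 symbols were found as written, 219 by a synonym and 204 not. Gene models used by the authors may be other ones. Reads shared between the 6 genes and close copies elsewhere could not be examined from a count table. Total counts were 31060222 to 32712448 in control and 5276557 to 11819576 in mutant samples.

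Alternatives were TMM and total-count scaling, DESeq2 1.42.0, no filter and a mean of at least 50 counts, each sample left out, the replicate number as a block, control counts thinned to 9484797, a spline correction for transcript length and GC content (4 degrees of freedom each, centred over the libraries, from protein-coding genes averaging 50 counts or more), and that correction with the block. The same correction without mutant sample 1 was added after the values were seen. Log2 ratios between genes used a pseudocount of 0.5 counts, with 5 as the alternative. The edgeR step was also run on simulated data, the outcome is not reported here, and no support is drawn from it.

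The 6 genes, the gene groups and the tests were chosen with earlier results of these data known. Named were all 6 genes, in each group up to 2 genes that rose and 2 that fell past an unadjusted p of 0.05 and 1.5-fold with the smallest p (or the gene with the smallest p where none passed), the 2 genes most like each of the 6, Fgfr1, Tfec and Gpnmb. No Dixon test of single samples was made, since groups of 3 are too small for it.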

Additional observations from a re-analysis of the deposited data

How the results depend on the processing

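No alternative gave any of the 6 genes an adjusted p under 0.05, and their lowest adjusted p was 0.0690 (Flcn, in the fit added after the values were seen). That fit, with the length and GC correction and without mutant sample 1, put 1 gene past the study's threshold upward and 1 downward and gave log2 fold changes of 0.32 for Tfeb, 0.39 for Tfe3, -1.74 for Mitf and 0.32 for Fnip2. Leaving out single samples gave ranges of -0.78 to -0.33 for Tfeb, -1.22 to 0.0086 for Tfe3, -1.61 to 0.50 for Mitf, -0.37 to 0.42 for Flcn, -0.23 to 0.70 for Fnip1 and -0.65 to 0.082 for Fnip2, with 0 to 1 of the 6 genes higher. The highest Mitf value and the lowest of the others came without a mutant sample other than 1, and Mitf was at -1.61 and the others highest without mutant sample 1. The ratios ranged from -0.59 to 0.63 (Fnip2 to Fnip1), -1.42 to 0.34 (Tfe3 to Tfeb) and -1.59 to 1.48 (Mitf to Tfe3).

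Among the other settings, TMM scaling gave -0.078 for Mitf and -0.080 for Flcn. Scaling by total counts gave -0.29 for Mitf, -0.24 for Flcn and -0.049 for Fnip1. DESeq2 gave -0.0055 and -0.028 for Mitf and Flcn, and thinned control counts -0.018 and -0.094. With no filter, and with only genes averaging 50 counts or more, Flcn was at -0.0079 and -0.0034. The length and GC correction gave 0.20 for Tfeb, -0.050 for Mitf, -0.43 for Fnip1, 0.0025 for Fnip2 and -0.14, 1.00 and -0.77 for the ratios of Mitf to Tfe3, Fnip2 to Fnip1 and Tfe3 to Tfeb. Each of these values for a gene is smaller than its standard error.

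The labels do not say whether the replicate numbers pair the samples. Deviations from the group means correlated at 0.047, 0.0094 and 0.055 between same-numbered samples, and every sample correlated best with its own number. Correlations this small cannot settle whether the samples were paired, so fits with and without a replicate block are given. The replicate block gave -0.72 for Mitf, -0.25 for Flcn and -0.37 for Fnip1, and with the correction added 0.16 for Tfeb, -0.84 for Mitf and -0.92 for Fnip1. It called 508 genes in place of 1074.

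Group medians moved with these settings. Single samples left out gave -0.80 to -0.25 for the E-box factors, 0.15 to 0.55 for Rag and Ragulator, -0.70 to -0.30 for mTORC1, -0.21 to 0.013 for folliculin partners, -0.25 to -0.064 for phosphorylation and export, -0.46 to -0.23 for lysosomal genes, -0.18 to 0.037 for the V-ATPase, -0.70 to -0.34 for autophagy genes and -0.23 to 0.095 for other targets. Total-count scaling, which moved the median of all genes to -0.30, gave 0.15 for Rag and Ragulator, -0.71 for mTORC1, -0.20 for folliculin partners, -0.36 for phosphorylation and export, -0.56 for lysosomal genes, -0.35 for the V-ATPase and -0.25 for other targets. TMM gave -0.20 for phosphorylation and export and -0.38 for lysosomal genes. The correction gave 0.016 for Rag and Ragulator, 0.097 for mTORC1, -0.16 for folliculin partners, -0.094 for lysosomal genes, -0.043 for the E-box factors, -0.18 for the V-ATPase, -0.26 for autophagy genes and 0.25 for other targets. The replicate block gave -0.67 for the E-box factors, -0.23 for phosphorylation and export, -0.37 for lysosomal genes and -0.31 for other targets. With block and correction they were -0.010 for Rag and Ragulator, -0.023 for mTORC1, -0.22 for folliculin partners, -0.20 for phosphorylation and export, -0.19 for lysosomal genes and -0.26 for other targets.

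Genes called at an adjusted p under 0.05 numbered 229 with no filter, 370 among genes averaging 50 counts or more, 1609 with DESeq2, 161 with the correction, 154 with correction and block, 378 with thinned controls, and 76 to 606 with a sample left out. With mutant sample 1 at 8 to 56 counts per gene of the 6, depth limits what that library can show. The cause of these differences was not tested.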
